A study of Mus musculus with 18 samples.

Results

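The Hox genes of the mouse were chosen by symbol: every gene in the P21 expression table whose name is Hoxa, Hoxb, Hoxc or Hoxd followed by a number. There were 39 such genes among the 55385 genes of that table, and all 39 were found in the RefSeq annotation of GRCm38.p6. They form 4 clusters: 11 genes at chr6:52155367-52260880 (Hoxa), 10 at chr11:96194316-96368254 (Hoxb), 9 at chr15:102921131-103036856 (Hoxc) and 9 at chr2:74668225-74765142 (Hoxd). Measured from the start of the first to the end of the last member, the clusters span 105.5, 173.9, 115.7 and 96.92 kb, or 492.1 kb in all.

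Hox genes encode homeodomain transcription factors that give cells of the embryo their position along the head-to-tail axis. Their order on the chromosome follows the order of their expression domains, and in the brain these domains end in the hindbrain, so that forebrain structures such as the hippocampus normally keep the clusters silent. That silence is a textbook case of Polycomb repression: Polycomb repressive complex 2 (PRC2) trimethylates lysine 27 of histone H3 (H3K27me3), and PRC1 binds the mark and compacts the chromatin. Trithorax-group enzymes that place H3K4me3 at promoters, and the SWI/SNF (BAF) chromatin remodellers, are known as counterweights to Polycomb. Arid1a, the gene deleted here, encodes a subunit of the BAF complex.

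The samples were hippocampi of C57BL/6 mice, either with a conditional knockout of Arid1a (Arid1a-cKO, called cKO below) or wild type (WT). PolyA RNA was sequenced from 2 cKO and 2 WT biological replicates at postnatal day 21 (P21) and from 3 cKO and 3 WT at embryonic day 16.5 (E16.5). Chromatin at 3 weeks was immunoprecipitated for H3K4me3, H3K27ac and H3K27me3, with 1 library per genotype and mark and none replicated. The labels used here name neither the Cre driver nor the cells that carry the deletion. Arid1a itself had 2281 and 1778 estimated counts in cKO libraries at P21, against 4291 and 4089 in WT libraries (log2 fold change −1.08, SE 0.13, edgeR adjusted p = 0.00507). In the embryo the cKO libraries held 3210, 3100 and 3527 Arid1a counts, against 4983, 5489 and 5560 in WT (log2 fold change −0.64, SE 0.06, edgeR adjusted p = 0.032). The 8 forebrain markers checked were all detected at both ages. At P21 their summed level was 826 and 867 CPM (counts scaled to a common library total) in cKO and 1070 and 1110 CPM in WT. At E16.5 it was 3085, 2903 and 2370 CPM in cKO and 2621, 2507 and 3246 CPM in WT, and the groups overlapped. In whole hippocampus, fewer cells of a type and less RNA per cell cannot be told apart.

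Sequence near Hox genes is shown for 2 features on which the marks below are read: promoters, whose CpG content is known in mammals to go with Polycomb recruitment, and the microRNAs that lie between the Hox genes. RefSeq promoters of build GRCm38.p6 were matched for 22 of the 39 genes, with 24 start sites. Each window is the 250 bases before a start site, 5′ to 3′ on the gene's strand, with every CG dinucleotide in capitals. For each cluster 1 matched window is printed that lay wholly under H3K27me3 in cKO. It was chosen by the covered share of promoter and gene among the matched genes alone, with ties, so it need not be the most covered gene of its cluster. These are Hoxa13 (chr6:52260881-52261130, minus strand), which patterns the distal limb and the urogenital tract, and Hoxb8 (chr11:96281655-96281904, plus strand), known from mutant mice for a role in grooming. They are joined by Hoxc4 (chr15:103034145-103034394, plus strand) and Hoxd9 (chr2:74697513-74697762, plus strand), both of which help to pattern the axial skeleton.
Hoxa13: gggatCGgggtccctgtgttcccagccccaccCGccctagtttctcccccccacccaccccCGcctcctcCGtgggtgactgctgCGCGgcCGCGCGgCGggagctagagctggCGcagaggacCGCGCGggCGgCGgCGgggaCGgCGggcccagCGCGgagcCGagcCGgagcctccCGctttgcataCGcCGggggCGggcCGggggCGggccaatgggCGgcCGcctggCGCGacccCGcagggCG
Hoxb8: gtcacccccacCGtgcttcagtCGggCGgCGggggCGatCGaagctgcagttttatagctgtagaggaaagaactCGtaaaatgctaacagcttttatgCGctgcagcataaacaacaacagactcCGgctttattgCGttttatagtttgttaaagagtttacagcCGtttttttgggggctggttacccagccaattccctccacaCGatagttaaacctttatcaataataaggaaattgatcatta
Hoxc4: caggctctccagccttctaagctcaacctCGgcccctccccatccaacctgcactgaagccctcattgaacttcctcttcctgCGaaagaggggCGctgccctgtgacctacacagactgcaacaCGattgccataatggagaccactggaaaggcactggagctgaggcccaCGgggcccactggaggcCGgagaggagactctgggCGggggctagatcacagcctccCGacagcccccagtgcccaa
Hoxd9: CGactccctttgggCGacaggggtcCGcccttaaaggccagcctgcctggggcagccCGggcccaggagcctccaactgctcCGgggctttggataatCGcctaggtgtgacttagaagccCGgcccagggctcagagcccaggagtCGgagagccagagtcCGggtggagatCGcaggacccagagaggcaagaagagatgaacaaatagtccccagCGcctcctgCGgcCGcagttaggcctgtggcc
The windows of Hoxa13, Hoxb8, Hoxc4 and Hoxd9 held 35, 12, 8 and 13 CG dinucleotides. Over the 24 Hox windows the median was 12.5 CG, against 6 over all 32851 promoters in the table. Windows with 10 or more CG made up 62.5% of the Hox windows and 37.8% of all promoters.

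H3K27me3 peaks covered 23 of the 24 Hox windows from end to end in cKO and 13 of 24 in WT. The share of all promoters covered in this way was not measured, so these counts have no background. All 4 printed windows were wholly covered in cKO. In WT the whole 250 bp of the Hoxa13 and Hoxd9 windows lay under peaks, but 41 bp of the Hoxb8 window and 69 bp of the Hoxc4 window. The window that was not wholly covered in cKO belonged to Hoxa9, a posterior gene of the Hoxa cluster, with 33 bp under a peak.

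The clusters also hold microRNAs. The miR-10 and miR-196 families, best known for lying in Hox clusters, are shown with bases 2 to 8, the seed that pairs with target mRNAs, in capitals.
miR-10a-5p: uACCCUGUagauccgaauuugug
miR-10b-5p: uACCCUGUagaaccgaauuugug
miR-196a-5p: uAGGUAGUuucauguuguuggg
miR-196b-5p: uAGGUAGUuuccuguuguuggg
The miR-10 pair shares the seed ACCCUGU, with Mir10a in the Hoxb cluster (chr11:96317165-96317274, plus strand) and Mir10b in the Hoxd cluster (chr2:74726070-74726137, plus strand). The miR-196 family, whose known targets include Hox mRNAs such as that of Hoxb8, shares AGGUAGU. It comes from Mir196b in the Hoxa cluster (chr6:52230081-52230165, minus strand), Mir196a-1 in Hoxb (chr11:96265164-96265265, plus strand) and Mir196a-2 in Hoxc (chr15:102973350-102973434, plus strand). Mir615, in the Hoxc cluster, belongs to neither family. Mir10a, Mir10b, Mir196b and Mir196a-2 lay wholly under H3K27me3 peaks in both genotypes. Mir196a-1 was the exception, with 100% of its precursor under a peak in cKO and 0% in WT. No count fell on any of these precursors in the 10 RNA libraries, which measured polyA RNA and not mature microRNAs.

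The question put to the chromatin data was how the silencing mark lies over the Hox clusters with and without Arid1a. All 39 Hox genes carried an H3K27me3 peak within 1 kb of the gene in cKO, and all 39 did in WT. This set the Hox genes apart from the bulk of the genome: of 21887 protein-coding genes, 16.9% had such a peak in cKO and 4.35% in WT. Genes with a peak in cKO and not in WT made up 12.6% of all protein-coding genes. No Hox gene could be among them, since all 39 had a peak in WT. Peaks, folds and q values are those of the authors' narrow peak calling, and with 1 library per genotype no difference between cKO and WT peaks could be tested.

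What differed between the lists was the extent of the mark. H3K27me3 peaks covered 420.4 kb, or 85.4%, of the 4 clusters in cKO and 216.1 kb, or 43.9%, in WT. Every cluster showed this: 96.0% of Hoxa was covered in cKO against 50.2% in WT, 71.8% of Hoxb against 35.3%, 92.1% of Hoxc against 46.7%, and 90.4% of Hoxd against 49.3%. The number of peaks ran the other way. Over the clusters there were 120 peaks in cKO and 281 in WT, although the whole list was longer in cKO, with 15659 peaks against 4124 in WT. Peaks in the clusters had a median length of 2301 bp in cKO and 614 bp in WT, while peaks elsewhere had a median of 426 bp in cKO and 491 bp in WT. The longest cKO peak over a Hox cluster was 20.08 kb and lay in Hoxb, against 3.995 kb for the longest in WT, also in Hoxb. Runs of short WT peaks thus lay under long cKO peaks: 64 of the 120 cKO peaks overlapped 2 or more WT peaks, with 13 as the most. Elsewhere 796 of 15539 cKO peaks did so, also with 13 as the most. Among cKO peaks that overlapped any WT peak, these were 64 of 81 in the clusters and 796 of 2013 elsewhere. With peaks within 1 kb of each other joined, 447.6 kb of the clusters was covered in cKO and 289.4 kb in WT.

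**Figure D1:**
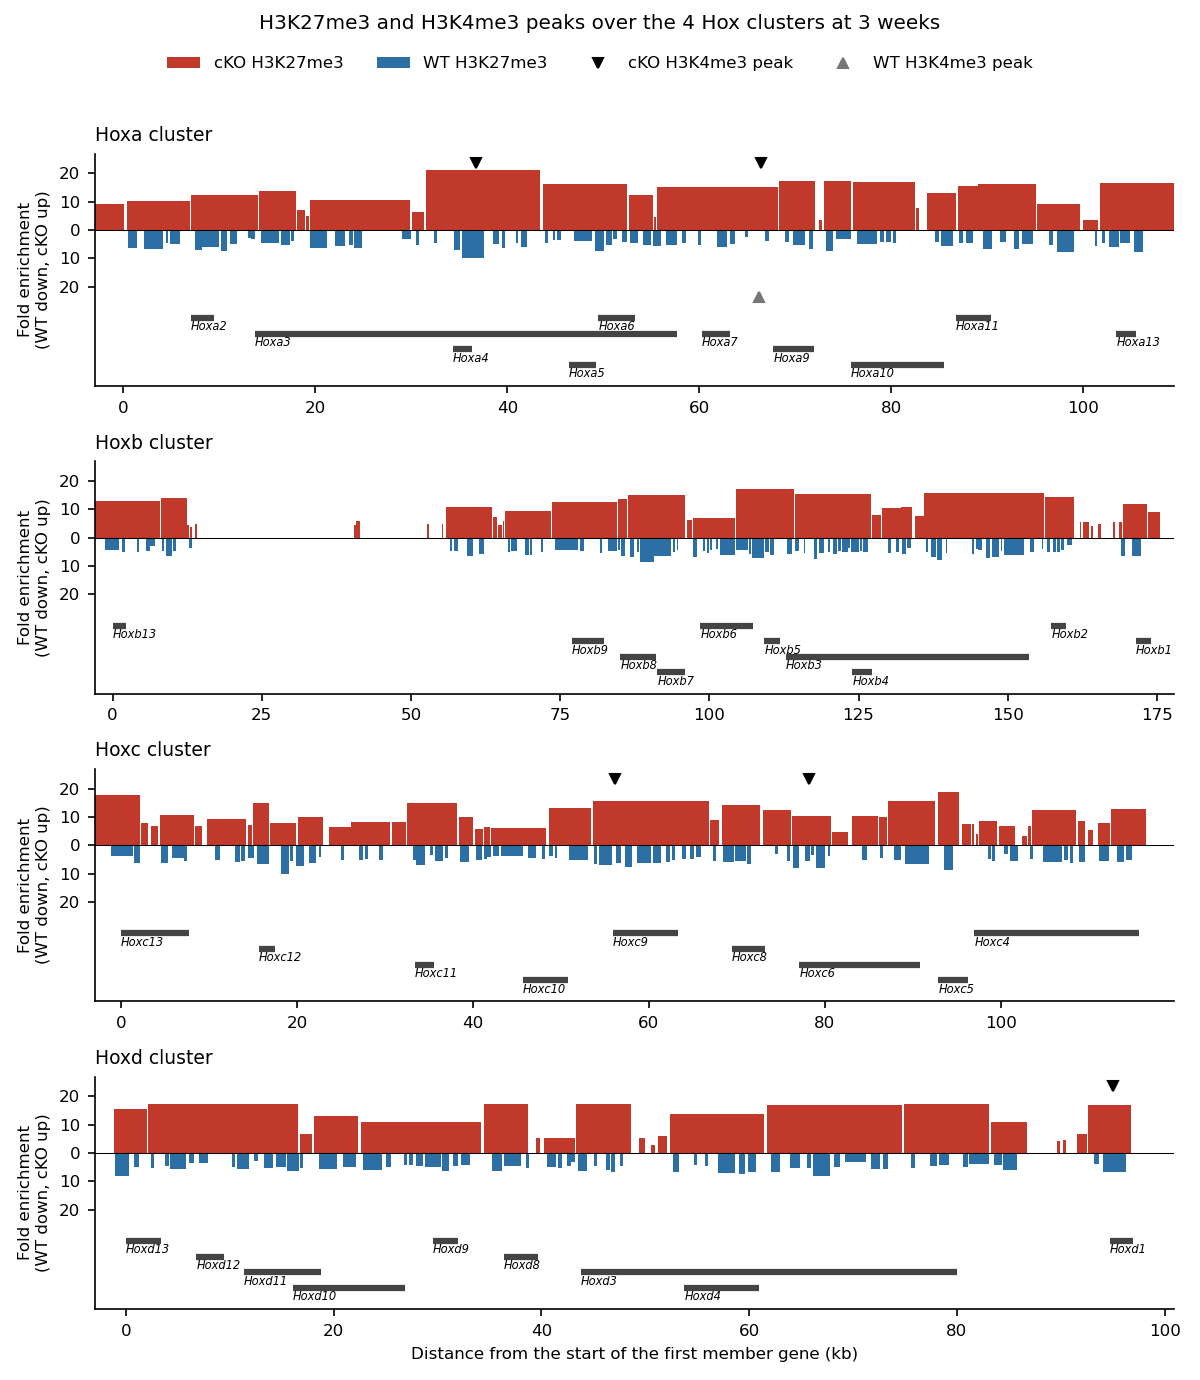
H3K27me3 peaks over the 4 Hox clusters, cKO drawn upward and WT downward from the same line, each box as wide as the peak and as tall as its fold enrichment over input; triangles mark H3K4me3 peaks (height without meaning) and grey bars the genes reported here. The x axis is the distance in kb from the start of the first member, and long cKO boxes, up to 20.08 kb, face rows of short WT boxes, up to 3.995 kb.

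No WT peak over the clusters was lost in cKO. All 281 WT peaks (100%) were overlapped by a cKO peak by at least 1 bp, against 3756 of 3843 WT peaks elsewhere (97.7%). With 85.4% of the clusters under cKO peaks, little room was left there for a WT peak without overlap. Read from the cKO side, 81 of the 120 cKO peaks in the clusters (67.5%) overlapped a WT peak, against 2013 of 15539 elsewhere (13%). The clusters thus contributed differently to the lists: they held 3.22% of all H3K27me3 peak length in cKO and 7.56% in WT. Among the 100 peaks of highest fold enrichment, 13 lay in Hox clusters in the cKO list and 4 in the WT list. Of all peaks, 0.766% lay in Hox clusters in the cKO list and 6.81% in the WT list.

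The fold enrichment over input was also higher in the cKO list. Hox peaks had a median fold of 9.09 in cKO and 5.15 in WT, while peaks elsewhere had a median of 5.0 in cKO and 4.99 in WT. These medians mix peaks that recur with peaks found in 1 list, so each cKO peak was also set beside the highest of the WT peaks under it. The ratio of folds, cKO over WT, then had a median of 1.99 over 81 cKO peaks in the clusters (quartiles 1.49 and 2.35). Over 2013 such peaks elsewhere it was 1.72 (quartiles 1.32 and 2.19). The quartile ranges overlapped, and a higher fold in cKO at shared peaks was seen inside and outside the Hox clusters. Depth was similar in the 2 libraries, with 17399169 tags in cKO and 18009991 in WT, against inputs of 18301652 and 17876653 tags. A difference between the genotypes and a difference in the efficiency of the 2 immunoprecipitations cannot be told apart.

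**Figure D2:**
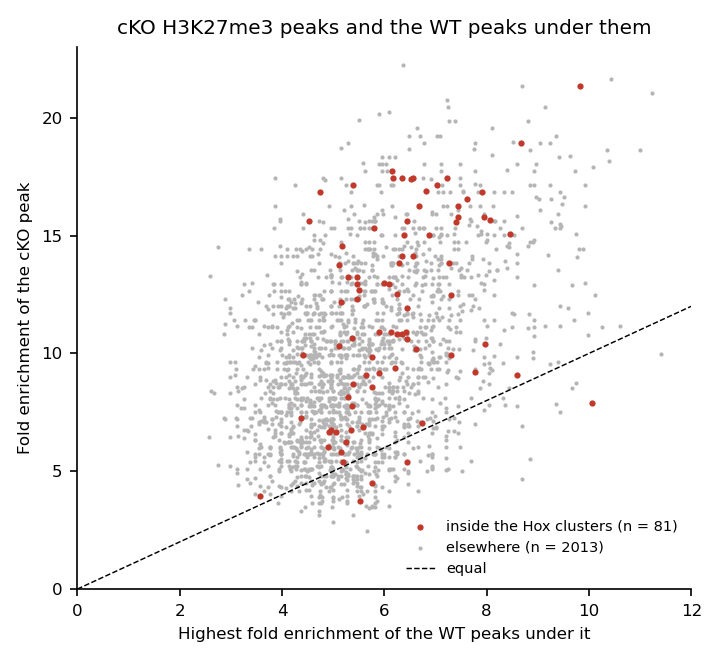
Fold enrichment of each cKO H3K27me3 peak that overlaps a WT peak (y axis) against the highest fold enrichment of the WT peaks under it (x axis), 1 point per cKO peak; red points lie in the Hox clusters (n = 81), grey points elsewhere (n = 2013), and the dashed line marks equal folds. Most points of both colours lie above the line, with median ratios of 1.99 in the clusters and 1.72 elsewhere.

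Gene by gene, the mark filled the Hox genes in cKO. The share of the gene span under H3K27me3 peaks was between 77.8% and 100% in cKO, with a median of 97.6%, and between 30.0% and 80.0% in WT, with a median of 58.2%. Every one of the 39 genes had a larger share in cKO. At least 50% of the span was covered at 39 of 39 Hox genes in cKO, where 1.72% of all protein-coding genes reached that share, and at 24 of 39 in WT, where 0.649% did. Hox genes are short, with a median span of 3737 bp against 18130 bp for the 905 other genes marked in both lists, and those other genes had a median of 17.6% covered in cKO and 4.48% in WT. In cKO 14 Hox genes were covered over the whole span, and in WT none was. How many other genes were wholly covered, or had a larger share in cKO, was not counted.

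Among the 4 clusters, the members at the ends of the cKO range were as follows. In Hoxa, Hoxa4, Hoxa5, Hoxa7 and Hoxa13 were covered to 100% in cKO, against 77.1%, 70.7%, 35.1% and 76.7% in WT. The lowest there was Hoxa10, with 90.4% in cKO and 42.0% in WT. In Hoxb, Hoxb2, Hoxb5, Hoxb7, Hoxb9 and Hoxb13 reached 100% in cKO, against 64.3%, 49.1%, 63.4%, 41.2% and 73.2% in WT. Hoxb4, a central gene studied in blood stem cells, was lowest in that cluster at 97.2% in cKO and 65.4% in WT. In Hoxc, Hoxc9 and Hoxc11 reached 100% in cKO, against 63.8% and 64.3% in WT, and Hoxc4 was lowest with 86.0% in cKO and 45.1% in WT. In Hoxd, Hoxd4, Hoxd9 and Hoxd12 reached 100% in cKO, against 48.7%, 80.0% and 33.0% in WT. Hoxd8 had the lowest share of all 39 genes in cKO, 77.8%, against 60.1% in WT. The lowest WT shares were those of Hoxc5 (92.9% in cKO, 30.0% in WT) and Hoxd12, and so the genes least covered in WT were not the least covered in cKO.

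**Figure D3:**
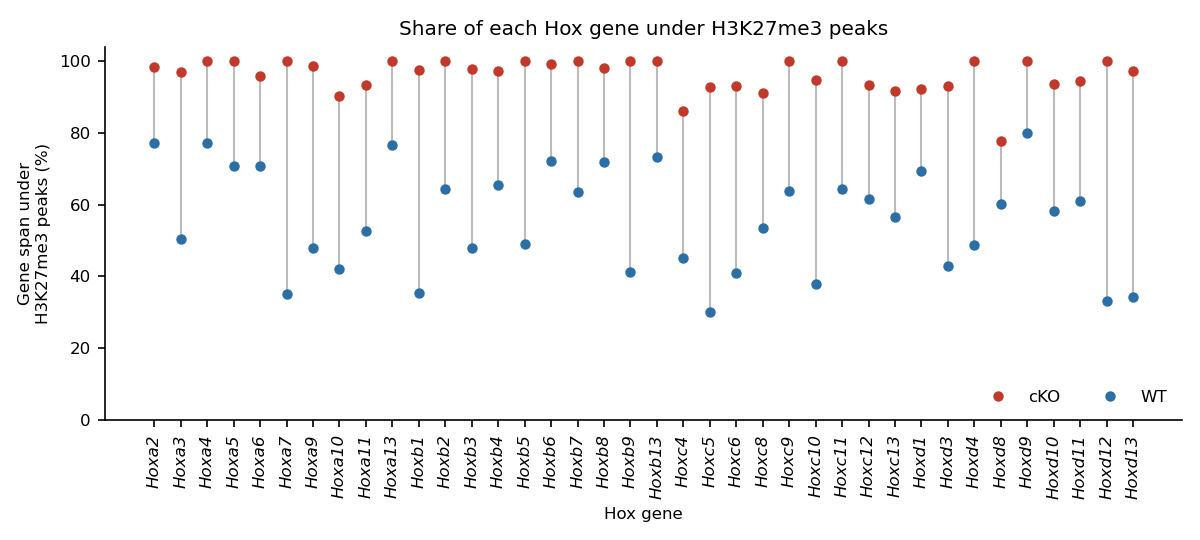
Share of the annotated span of each Hox gene reported here (y axis, %) under H3K27me3 peaks, with red points for cKO and blue points for WT joined by a grey line, 1 library each. All red points lie at or above 77.8%, and all blue points lie between 30.0% and 80.0%.

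The highest fold enrichment at a Hox gene ranged from 10.2 to 21.3 in cKO (median 16.2) and from 4.90 to 10.05 in WT (median 6.81). Hoxa3 and Hoxa4 shared the highest cKO peak, of fold 21.3, against 9.83 in WT. The ratio between the lists was largest at Hoxd12, a gene of the developing digits, with 17.4 in cKO and 4.90 in WT, a ratio of 3.56. It was smallest at Hoxc12, with 15.03 in cKO and 10.05 in WT, a ratio of 1.5. The ratio was at least 2 at 31 of the 39 Hox genes, against 52% of all 944 genes marked in both lists. Its median was 2.19 at Hox genes, and 2.02 at the 905 other genes, where it ran from 0.658 to 5.26. Neighbouring Hox genes often lie under the same peak, and the long annotated spans of Hoxa3, Hoxb3 and Hoxd3 run over other members, so the 39 values are not independent.

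Grouped by position along the clusters, the medians lay close together. Over the 8 anterior genes (groups 1 to 3, known for hindbrain segments) the median share of span was 97.3% in cKO and 57.4% in WT. Over the 15 central genes (groups 4 to 8, neck and thorax) it was 98.2% in cKO and 60.1% in WT. Over the 16 posterior genes (groups 9 to 13, lower trunk, limbs and genitalia) it was 98.0% in cKO and 57.4% in WT. The median highest fold was 15.7, 16.2 and 16.4 in cKO for anterior, central and posterior genes, and 7.06, 7.26 and 6.35 in WT.

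The extent of the mark at the cluster ends and between genes was also compared. In cKO it ran past the outermost genes of all 4 clusters, and in WT it did so except at the Hoxb1 end of Hoxb and the Hoxd1 end of Hoxd, where it stopped short of the end of the gene. Peaks joined over gaps of up to 5 kb gave a single domain over Hoxa of 136.6 kb in cKO and 126.8 kb in WT, and over Hoxc of 177.4 kb in cKO and 133.9 kb in WT. Over Hoxd they gave 1 domain of 124.0 kb in cKO and 2 that together reached over 116.1 kb in WT, parted by an unmarked stretch of 7.381 kb. In Hoxb they gave 3 pieces in either genotype. There, Hoxb13 stands 74.7 kb from Hoxb9, and the largest unmarked stretch of all 4 clusters lay in this interval, 26.3 kb long in cKO and 43.26 kb in WT. The nearest protein-coding genes outside the clusters, other than the linked homeobox genes described below, were little covered: Skap2, Hibadh, Ttll6, Skap1, Calcoco1, Smug1, Lnpk and Mtx2 had at most 16.3% of their span under H3K27me3 in cKO (Ttll6) and 3.22% in WT (also Ttll6).

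The active marks were absent or nearly so over the clusters. H3K27ac, the acetylation of the same lysine at active promoters and enhancers, had 0 peaks over the 4 clusters and at 0 of 39 Hox genes in cKO and in WT. Of all protein-coding genes, 51.2% had an H3K27ac peak in cKO and 36.1% in WT. H3K4me3, the mark of promoters, had 6 peaks over the clusters in cKO, 2.313 kb long in all, and 1 of 0.361 kb in WT. It was found at 7 of 39 Hox genes in cKO and 0 of 39 in WT, against 65.4% of all protein-coding genes in cKO and 63.7% in WT.

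Polycomb targets that carry H3K4me3 and H3K27me3 together are known as bivalent. Among the genes with an H3K27me3 peak in the same list, 82.1% had an H3K4me3 peak in cKO and 64.7% in WT, and 39.6% had an H3K27ac peak in cKO and 4.63% in WT. Against these shares the Hox genes, with 7 and 0 of 39 for H3K4me3 and 0 and 0 of 39 for H3K27ac, were rarely marked. The peaks are calls on whole tissue, so both marks at a gene need not lie on the same chromosomes.

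The 7 Hox genes with an H3K4me3 peak in cKO and none in WT included Hoxa3, Hoxa4, Hoxa9, Hoxc6, Hoxc9 and Hoxd1. Genes with such a peak in cKO and not in WT made up 2.16% of all protein-coding genes, 472 of 21887. That base includes 13944 genes with a peak in WT, which could not be among the 472. The share among genes without a WT peak is therefore higher than 2.16%. The strongest peak lay in the 4.52 kb between Hoxa7 and Hoxa9 (chr6:52221458-52222117, fold 10.8), 980 bp from Hoxa9, and it was also the place of the only WT peak in the clusters (chr6:52221430-52221790, fold 6.92), 1307 bp from Hoxa9. Since a gene was counted within 1 kb, the 2 overlapping peaks fell on either side of that limit, and Hoxa9 counts as marked in cKO alone for this reason. With a limit of 5 kb, 10 Hox genes were marked in cKO and 2 in WT. The weaker cKO peaks had folds that included 4.84 at Hoxa3 and Hoxa4, 4.84 at Hoxc9, 5.96 at Hoxc6 and 4.34 at Hoxd1, below the median of 7.82 for the cKO H3K4me3 list.

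In cKO all 6 H3K4me3 peaks lay wholly inside H3K27me3 peaks, which covered 85.4% of the clusters in that list. In WT, where H3K27me3 covered 43.9% of the clusters, the single H3K4me3 peak between Hoxa7 and Hoxa9 shared 0 of its 361 bp with H3K27me3. Whether the overlap differs from what these covered shares alone would give was not tested. At that site the 660 bp of the cKO peak lay under H3K27me3 in cKO and none of it did in WT. The H3K4me3 lists held 28234 peaks in cKO and 25145 in WT, and whether the additional Hox peaks go with the longer list was not tested.

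The RNA was then read for any sign of Hox transcription. Hox mRNA was at the edge of detection in every library, and no Hox gene reached the count needed for testing at either age. All 39 genes together had 12.6 and 16.4 estimated counts in cKO and 15 and 12 in WT at P21, out of 20089631 to 20332148 counts per library. At E16.5 they had 11, 26.5 and 20 counts in cKO and 21.5, 8.3 and 8 in WT, out of 17662335 to 19760764. The groups overlapped at both ages. In CPM, the summed Hox level was 0.715 ± 0.152 CPM in cKO and 0.677 ± 0.106 CPM in WT at P21 (SD, n = 2 each), and 1.04 ± 0.443 CPM in cKO and 0.657 ± 0.412 CPM in WT at E16.5 (SD, n = 3 each). A gene with no count in a library could still have had a level of up to 0.145 to 0.150 CPM at P21 and 0.150 to 0.170 CPM at E16.5, taking 3 counts as the limit that a count of 0 allows. These limits and the counts carry counting error only.

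No count was found in any of the 10 libraries for 11 of the 39 Hox genes, among them Hoxa9, Hoxa11, Hoxb6, Hoxb7, Hoxc12, Hoxc13, Hoxd3, Hoxd4, Hoxd10 and Hoxd12. In all, 30 genes had at most 3 counts summed over all libraries, to the nearest whole count. By cluster, the summed counts were 6 in cKO and 4 in WT for Hoxa at P21, and 5 in cKO and 0 in WT at E16.5. For Hoxb they were 9 in cKO and 5 in WT at P21, and 25 in cKO and 5 in WT at E16.5. For Hoxc they were 12 in cKO and 15 in WT at P21, and 26.5 in cKO and 17.8 in WT at E16.5. For Hoxd they were 2 in cKO and 3 in WT at P21, and 1 in cKO and 15 in WT at E16.5.

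The most counted member was Hoxc9, known for setting thoracic identity in spinal motor neurons. It had 3.6 and 4.41 counts in cKO and 7 and 4 in WT at P21, and 4, 5.53 and 9 in cKO and 10.5, 4.31 and 1 in WT at E16.5. Its groups overlapped at both ages.

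Hoxb5, which acts in neural crest that forms the enteric nervous system, was the member whose counts divided the genotypes. It had 2 and 2 counts in cKO and 0 and 0 in WT at P21, and 3, 9 and 3 in cKO and 0, 0 and 0 in WT at E16.5. All 5 cKO libraries thus held counts and no WT library did. Its mean E16.5 level in cKO was 0.276 CPM, which is 1.78 times the 0.155 CPM that the limit of 3 counts allows in WT. Only cKO replicate 2, with 9 counts, lay above 3 counts, so this ratio is not a lower bound on the fold. At P21 both groups were under that limit. Of the 36257 genes with any count, 4 (0.011%) had a count in every cKO library and none in WT, of which Hoxb5 was 1, and 5 (0.0138%) showed the reverse, none of them a Hox gene. This pattern was picked out after its values were seen. Hoxb5os, the gene antisense to Hoxb5, had no count in any library. In the authors' deposited table Hoxb5 had a log2 fold change of 3.41 at P21 and 4.87 at E16.5, cKO over WT, and its adjusted p is listed there as 1.0 at both ages, which at such counts may stand for a missing value.

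Hoxb2, active in hindbrain segments, had 2 and 0 counts in cKO and 0 and 0 in WT at P21, and 1, 4 and 1 in cKO and 0, 0 and 0 in WT at E16.5. Hoxd8, a gene of the trunk, went the other way at E16.5, with 0, 0 and 0 counts in cKO and 9, 2 and 1 in WT. At P21 it had 0 and 1 in cKO and 1 and 0 in WT. Hoxc4 had 0 and 1 counts in cKO and 1 and 1 in WT at P21, and 1, 2 and 2 in cKO and 0, 0 and 0 in WT at E16.5. Hoxa7 was counted at P21 only, with 0 and 3 in cKO and 1 and 2 in WT. The last 2 of the 8 most counted members, Hoxb9 and Hoxb13, had no more than 1.01 counts in any library.

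**Figure D4:**
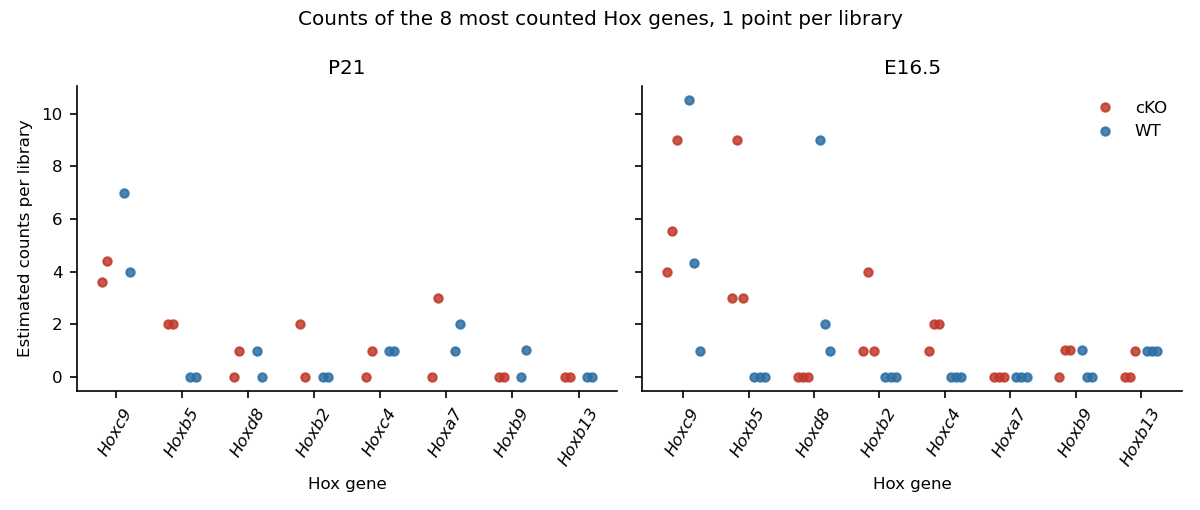
Estimated counts per library (y axis) of the 8 Hox genes with the most counts over all 10 RNA libraries, at P21 (left panel) and E16.5 (right panel), with cKO in red to the left of WT in blue and 1 point per library. The highest point stands at 10.5 counts; Hoxb5 has counts in all 5 cKO libraries and 0 in all 5 WT libraries, and Hoxd8 has counts at E16.5 in the 3 WT libraries alone.

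At P21, 1 of the 19 Hox genes with a count (Hoxb5) was higher in both cKO libraries than in both WT libraries, against 22.6% of all genes with a count, and 0 of 19 were lower, against 17.7%. At E16.5, 3 of 20 (Hoxb5, Hoxb2 and Hoxc4) were higher in every cKO than in every WT library, against 4.82% of all genes, and 1 of 20 (Hoxd8) was lower, against 10.1%. Without the filter on low counts, edgeR's quasi-likelihood test called 0 of 19 Hox genes at P21 and 0 of 20 at E16.5. The lowest adjusted p was 0.465 at P21 and 0.177, for Hoxb5, at E16.5. Unadjusted p-values under 0.05 were 0 at P21 and 4 at E16.5, the same Hoxb5, Hoxb2, Hoxc4 and Hoxd8. In the same fits 16.7% of all genes at P21 and 12.1% at E16.5 had an unadjusted p under 0.05. DESeq2 gave none of the Hox genes an adjusted p at either age, and its unadjusted p was under 0.05 for 0 of them at P21 and 1 at E16.5.

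The counts were set beside markers of tissues that do express Hox genes. Of 9 hindbrain and spinal cord markers, none reached the count for testing at P21 and 2 did at E16.5. At E16.5 edgeR called neither, though both had an unadjusted p under 0.05, 1 higher and 1 lower in cKO. DESeq2 called Mab21l2 higher. Their summed level was 0.434 and 0.361 CPM in cKO and 0.0501 and 0.456 CPM in WT at P21, and 1.86, 4.81 and 3.90 CPM in cKO and 4.89, 3.03 and 4.92 CPM in WT at E16.5. Mab21l2 had 18, 40 and 39 counts in cKO and 7, 3 and 11 in WT at E16.5 (log2 fold change 2.24, SE 0.53, edgeR adjusted p = 0.147, DESeq2 adjusted p = 0.0233). The 9 mesenchyme and fibroblast markers summed to 34.2, 49.1 and 105 CPM in cKO and 1135, 159 and 260 CPM in WT at E16.5. EdgeR called none of these 9 at E16.5, with 8 at an unadjusted p under 0.05, and DESeq2 called 6 lower. Over all 16958 genes that edgeR tested at that age, 3499 had an unadjusted p under 0.05. The 7 endothelial markers summed to 100.3, 100.5 and 110 CPM in cKO and 344, 138 and 144 CPM in WT. EdgeR called none of these 7, with 6 at an unadjusted p under 0.05, and DESeq2 called 2 lower (Pecam1 and Cldn5). WT replicate 1 was highest in both lists, and it held 9 of the 12 Hoxd8 counts and the highest count of Hoxc9. At P21, by edgeR, the mesenchyme list had 1 marker higher (Twist1) and 1 lower (Col3a1) of 9, and the endothelial list 2 higher (Pecam1, Cldn5) and 1 lower (Tek) of 7, while the blood and immune list had none called at either age and none at an unadjusted p under 0.05. DESeq2 called 1 blood gene higher at P21 (Alas2). The part of such cells in the Hox counts was not tested.

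Genes that write, read and oppose the mark were measured next, list by list. Over all genes tested, edgeR called 2.81% higher and 3.91% lower in cKO at P21, of 17407 genes, and 0.0118% higher and 0.112% lower at E16.5, of 16958 genes. Its unadjusted p was under 0.05 for 4331 of the 17407 genes at P21 and 3499 of the 16958 at E16.5. Of 13 PRC2 subunits and accessory factors, 1 was higher and 0 lower at P21. That gene was Epop, which links PRC2 to elongin, with 875 and 1149 counts in cKO and 504 and 452 in WT (log2 fold change 1.06, SE 0.16, edgeR adjusted p = 0.013). Ezh2, the methyltransferase itself, was not called at P21 (169 and 164 counts in cKO, 130 and 176 in WT). In the embryonic libraries Ezh2 had 2095, 2243 and 2077 counts in cKO and 1465, 1549 and 1706 in WT, with no overlap between the groups (log2 fold change 0.51, SE 0.09, edgeR adjusted p = 0.127). At E16.5 DESeq2 called Ezh2, with an adjusted p of 0.00055, and so did edgeR without the filter on low counts (adjusted p = 0.0389).

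Of 21 PRC1 subunits, 2 were higher and 0 lower at P21: Pcgf2 (Mel18), with 896 and 974 counts in cKO and 621 and 592 in WT (log2 fold change 0.60, SE 0.12), and Cbx7, a chromodomain reader of H3K27me3, with 1036 and 1256 in cKO and 687 and 741 in WT (log2 fold change 0.66, SE 0.14). Their edgeR adjusted p-values were 0.0267 and 0.0316. At E16.5 Cbx7 lay in the other direction, with 69, 113 and 148 counts in cKO and 215, 213 and 165 in WT (log2 fold change −0.80, SE 0.27, edgeR adjusted p = 0.196). Pcgf2 had a log2 fold change of 0.31 at that age (SE 0.11, edgeR adjusted p = 0.201). Of 11 H3K27 demethylases and Trithorax genes, edgeR called none at either age, with unadjusted p-values under 0.05 for 6 at P21, all lower, and 5 at E16.5, all higher. DESeq2 called Kmt2a lower at P21 and Kdm6b, an H3K27 demethylase, higher at E16.5. Kmt2a, which maintains Hox expression in other tissues, had 2200 and 1882 counts in cKO and 2401 and 2949 in WT at P21 (log2 fold change −0.42, SE 0.13, edgeR adjusted p = 0.0995, DESeq2 adjusted p = 0.0491). EdgeR without the filter on low counts also called it. The median log2 fold change at P21 was 0.09 over the PRC2 list, 0.01 over PRC1 and −0.29 over the demethylases and Trithorax genes, against 0.01 over all genes tested. At E16.5 the medians were 0.08, 0.14 and 0.14, against −0.01. EdgeR called none of the 3 lists' genes at E16.5. Its unadjusted p was under 0.05 for 7 of 13 PRC2 genes (6 higher, 1 lower) and 6 of 21 PRC1 genes (4 higher, 2 lower). DESeq2 called Ezh2 and Jarid2 of PRC2 higher and none of PRC1.

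Partners and regulators of Hox genes were measured in the same way. EdgeR called none of 9 Hox cofactors at either age, with unadjusted p-values under 0.05 for 0 at P21 and 1 at E16.5. DESeq2 called 0 at P21 and 1 at E16.5, Pbx2, which was higher (adjusted p = 0.0216). Of 14 tested regulators of Hox expression, 1 was higher and 2 were lower at P21 by edgeR, and DESeq2 called the same 3. Rxra, a retinoid receptor, had 965 and 1003 counts in cKO and 692 and 660 in WT (log2 fold change 0.51, SE 0.11, edgeR adjusted p = 0.034). Egr2 (Krox20), which drives Hox genes in hindbrain segments and is an activity-induced gene in hippocampal neurons, had 33 and 9 counts in cKO and 251 and 313 in WT (log2 fold change −3.77, SE 0.49, edgeR adjusted p = 0.0168). Gdf11, a ligand that starts posterior Hox expression in the trunk, had 474 and 388 counts in cKO and 658 and 617 in WT (log2 fold change −0.59, SE 0.13, edgeR adjusted p = 0.0397). At E16.5 edgeR called none of the 14, with 3 at an unadjusted p under 0.05, and DESeq2 called Aldh1a2 lower (adjusted p = 0.0146; edgeR 0.177). Aldh1a2, which makes retinoic acid, had 1, 5 and 20 counts in cKO and 750, 39 and 94 in WT, and it was highest in the WT replicate 1 that also led in mesenchyme markers.

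The homeobox genes linked to Hox clusters or derived with them (Evx, Mnx, Gbx, En, Meox and the ParaHox genes, 15 in all) gave a nearby comparison. H3K27me3 peaks lay at 15 of 15 in cKO and 12 of 15 in WT, and at least 50% of the span was covered at 10 of 15 in either list. H3K4me3 was found at 8 of 15 in cKO and 4 of 15 in WT, and H3K27ac at 0 of 15 in both. Evx1 and Evx2, which adjoin the Hoxa and Hoxd clusters, were covered over 100% and 91.6% of their span in cKO and 86.3% and 61.2% in WT. Of these 15 genes 3 reached the count for testing at P21, and 1 was higher. En1, a gene of the midbrain and hindbrain border, had 24 and 22 counts in cKO and 2 and 0 in WT (log2 fold change 4.33, SE 0.78, edgeR adjusted p = 0.0216), and DESeq2 gave it no adjusted p. Its gene was covered by H3K27me3 over 93.2% in cKO and 56.5% in WT, and it had an H3K4me3 peak in both lists.

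Genes beside the clusters were also read in RNA. Of 17 tested genes near the 4 clusters, 1 was higher and 1 lower at P21 by edgeR and by DESeq2. EdgeR without the filter on low counts called the same 2 and also Ttll6, which was higher. Ttll6 had 62 and 29 counts in cKO and 10 and 17 in WT at P21 (with the filter, log2 fold change 1.71, SE 0.48, edgeR adjusted p = 0.077). At E16.5 edgeR called none, with 4 at an unadjusted p under 0.05, and DESeq2 called Hnrnpa1 higher and Nfe2l2 lower. Calcoco1, a coactivator and autophagy receptor 199.0 kb from the Hoxc cluster, had 2425 and 2555 counts in cKO and 1859 and 1732 in WT (log2 fold change 0.45, SE 0.11, edgeR adjusted p = 0.0492). Hnrnpa1, which encodes a splicing factor, had 3562 and 3573 in cKO and 4516 and 5100 in WT (log2 fold change −0.46, SE 0.11, edgeR adjusted p = 0.0484). Of the other 20 genes within the clusters that had rows in the tables, long noncoding RNAs and microRNA precursors among them, 15 had no count in any library. Hotair and Hotairm1 were among the 15. Hoxb3os had 4 counts in cKO replicate 1 at P21 and 1 in WT replicate 2 at E16.5.

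The RNA calls at P21 rest on 2 libraries per genotype. Of 8 forebrain markers, edgeR called 3 lower at P21 (Emx2, Prox1 and Emx1). DESeq2 called Emx2, Prox1 and Zbtb20 lower, and edgeR without the filter on low counts called Emx1, Emx2 and Zbtb20 lower. At E16.5 edgeR called none of the 8, and DESeq2 called Emx2 and Prox1 lower and Emx1 higher. Together with the 2 vascular and mesenchymal lists and the genes above, edgeR called 17 listed genes at P21. Without WT replicate 1, 12 of the 17 lost their call, and without WT replicate 2, 16 did, all but Twist1. With either cKO replicate left out, 0 or 1 was lost.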

How the data were processed

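The members and all gene lists were chosen with earlier results of these data known. Per the submitters' processing notes, Salmon 1.0.0 and DESeq2 1.26.0 were used for RNA and Bowtie2 2.3.5.1 and MACS2 2.2.5 for ChIP, on GRCm38; the deposited peak file headers give MACS 2.2.7.1 and a q limit of 0.01. The authors deposited estimated counts per gene for each RNA library (none normalized), and a table of log2 fold changes with adjusted p-values per age. The deposited comparison table also holds 2 score columns per the file headers, the mean of scaled counts and the Wald statistic, which were not used. The deposited peak files give, for each peak, its pileup signal, its −log10 p and q values, its fold enrichment over input (a ratio) and its position. Input libraries enter only through these lists.

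Estimated counts were rounded and tested per age with edgeR 4.0.16 (filterByExpr, TMM, robust quasi-likelihood F test, Benjamini-Hochberg adjustment over all genes tested, threshold 0.05; R 4.3.3). CPM uses edgeR's scaled library totals. Totals ran from 17662335 to 20332148 counts, which puts 3 counts at 0.145 to 0.170 CPM. Peaks were assigned to RefSeq genes within 1 kb by an overlap of 1 bp or more, and covered length is the union of peaks (Python 3.11.15, pandas 2.3.3, numpy 2.4.6). The scripts were tested on simulated data. Alternatives were DESeq2 1.42.0, other scalings and filters, a replicate block, each replicate left out, a stricter −log10 q of 5, other distances and a 200 bp overlap.

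Per-library counts are given for the 8 most counted Hox genes. Members named for a mark are those whose peak state differed between cKO and WT, or that had the highest or lowest share under H3K27me3 in cKO in their cluster. For each list, up to 3 called genes of lowest adjusted p per age were named, or the closest 1 where none was called. Hoxb5 was singled out further after its values were seen. The RNA replicates are biological per the series' design. The values of 1 Hox gene are not reported here, and it is not drawn in the figures; counts and medians over the members include it. The comparison of each cKO peak with the highest WT peak under it was chosen after the data were seen.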

Additional observations from a re-analysis of the deposited data

How the results depend on the processing

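With 1 ChIP library per genotype, nothing separates genotype from library; with Hox counts this low, depth limits every statement on Hox RNA. Genes called at P21 numbered 1169 (489 higher, 680 lower in cKO) and became 862 with the replicate block, 1347 with DESeq2, 2149 (921 higher, 1228 lower) without the filter on low counts, and 431 to 2871 with 1 replicate left out; upper-quartile scaling gave 1089, split 570 higher and 519 lower. At E16.5 the 21 calls (2 higher, 19 lower) became 0 with the replicate block (1950 at an unadjusted p under 0.05), 129 without the filter, 1066 with DESeq2 (352 higher, 714 lower), 19 with upper-quartile scaling and 0 to 15 with 1 replicate left out; the cause was not tested. Whether replicate numbers pair the samples was checked on each library's deviations from the mean log CPM of its own genotype. Between same-numbered cKO and WT libraries these deviations correlated at −0.228, −0.021 and −0.492 at E16.5, which gave no sign of pairing by number. Between differently numbered libraries the correlations ran from −0.168 to 0.358. At P21 the value was 0.02, but 2 libraries per genotype allow only 1 value and its opposite.

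The log2 ratio of the summed Hox level, cKO over WT, was 0.08 at P21, 0.37 without Hoxc9, −0.25 without Hoxb2 and Hoxb5 (an alternative added after seeing the data), and −0.16 to 0.28 with 1 replicate left out. At E16.5 it was 0.66, 0.90 without Hoxc9, −0.01 without Hoxb2 and Hoxb5, and 0.30 to 1.31 with 1 replicate left out (1.31 without WT replicate 1). Hox genes with H3K27me3 stayed at 39 in both lists under every peak alternative. The covered length was 420.4 kb in cKO and 216.1 kb in WT, and 418.1 and 201.5 kb at the stricter q. With peaks within 1 kb joined it was 447.6 kb in cKO and 289.4 kb in WT, a smaller difference. With 20 kb added on either side of each cluster, a longer territory, it was 512.9 kb in cKO and 253.7 kb in WT. H3K4me3 was found at 5 to 10 Hox genes in cKO, and in WT at 2 within 5 kb and 0 under the others.

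Of the values of listed genes under the alternatives, 437 kept direction and call, 43 lost the call, 19 gained it and 12 changed sign. The 437 include genes that were uncalled throughout and had no call to lose. All 43 losses fell on the 17 listed genes called at P21, since edgeR called no listed gene at E16.5. The 437 therefore do not measure how stable the calls were. None of the 12 was a call: at P21 Pbx2 (0.007 with upper-quartile scaling), Ezh2 (−0.11 to 0.32 with 1 replicate left out, lowest without WT replicate 1), Hba-a2 (−0.23 to 1.10, below 0 without cKO replicate 2 or WT replicate 2, with WT replicate 2 left out at −0.22), Nfe2l2 (−0.25 to 0.46, lowest without cKO replicate 1) and Rnf2 (−0.016 to 0.18, lowest without cKO replicate 2). At E16.5 they were Egr2 (−0.046 with the replicate block, and −0.90 to 0.59 with 1 replicate left out) and Twist1 (0.0099 with the replicate block, and −1.01 to 1.03 with 1 replicate left out).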
